A study of Mus musculus with 10 samples.

Results

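The genes described here mark T cells or carry the signal of their antigen receptor. They were listed by symbol as 33 genes of the receptor complex, its coreceptors and kinases, and the lineage factors and cytokine receptors of T cells, and were looked up among the 17016 gene symbols of the authors' table. Of these, 32 were present and 28 reached 1 CPM (reads of the gene relative to the TMM-scaled size of its library) in at least 5 of 10 libraries, the condition for testing. Cd8b1, Themis, Txk and Tbx21 were present below that level, and Sh2d1a was not analysed here.

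RNA came from whole back skin. The mice were BALB/c females, 10 to 11 weeks of age. All mice received imiquimod, a TLR7 agonist that induces psoriasis-like inflammation, as a 5% cream on the shaved back daily for 5 days. Mice of one group also had 5 intraperitoneal injections of quinpirole, which activates the D2 class of dopamine receptors, and the other group is labelled vehicle. Each group had 5 libraries. Skin without imiquimod was not analysed here, and nothing in the labels ties each library to its own animal. The p-values therefore measure only the spread between these libraries, which may be technical.

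A T cell reads antigen through a receptor that cannot signal by itself and relies on the CD3 chains and the zeta chain for that. On contact the kinase LCK phosphorylates those chains, ZAP-70 docks on them, and the adaptor LAT gathers the enzymes that carry the signal onward. Mouse epidermis holds a resident network of gamma-delta T cells, and the dermis holds gamma-delta and alpha-beta T cells. Gamma-delta T cells of the dermis are a known source of IL-17 in skin treated with imiquimod.

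Cd3g, Cd3d and Cd3e lie side by side on chromosome 9 and their levels parted in 1 library, described below, so the promoter windows of these neighbours are shown, with that of Il7r, a member of high correlation with the CD3 genes. On mm10 (GENCODE M21), Cd3g runs on the minus strand from 44969572 to 44980431 and Cd3d on the plus strand from 44981786 to 44987339, so that their starts face away from each other, 1355 bases apart. Cd3e runs on the minus strand from 44998740 to 45009627, and its 3' end lies 11401 bases from that of Cd3d. Each window spans 250 bases before to 50 after the RefSeq start (GRCm38.p6, the assembly of mm10) and is written 5' to 3' on the strand of its gene. Capitals mark matches, on either strand, to the core letters of 4 motif families of T cell factors, namely TGTGGT for RUNX, AGGAAG for ETS, AGATAA for the GATA family and CTTTGA for TCF/LEF.
Cd3g, chr9:44980382-44980681, minus strand: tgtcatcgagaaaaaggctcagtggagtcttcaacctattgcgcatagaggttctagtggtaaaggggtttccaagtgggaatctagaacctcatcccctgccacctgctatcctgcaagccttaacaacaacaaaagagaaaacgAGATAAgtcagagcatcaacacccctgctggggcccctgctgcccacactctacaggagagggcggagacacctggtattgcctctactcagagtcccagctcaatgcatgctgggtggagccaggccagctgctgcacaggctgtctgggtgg
Cd3d, chr9:44981536-44981835, plus strand: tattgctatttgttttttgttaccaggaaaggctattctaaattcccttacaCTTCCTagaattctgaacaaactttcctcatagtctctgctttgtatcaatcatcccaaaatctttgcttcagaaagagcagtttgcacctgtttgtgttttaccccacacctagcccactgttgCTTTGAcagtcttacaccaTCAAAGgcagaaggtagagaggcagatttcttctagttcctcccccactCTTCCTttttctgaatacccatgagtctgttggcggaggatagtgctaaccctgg
Cd3e, chr9:45009562-45009861, minus strand: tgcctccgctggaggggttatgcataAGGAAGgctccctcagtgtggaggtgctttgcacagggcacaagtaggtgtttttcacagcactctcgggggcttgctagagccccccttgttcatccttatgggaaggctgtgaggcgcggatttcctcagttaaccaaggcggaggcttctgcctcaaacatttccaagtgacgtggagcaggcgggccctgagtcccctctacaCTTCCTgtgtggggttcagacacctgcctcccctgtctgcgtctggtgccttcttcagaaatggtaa
Il7r, chr15:9529827-9530126, minus strand: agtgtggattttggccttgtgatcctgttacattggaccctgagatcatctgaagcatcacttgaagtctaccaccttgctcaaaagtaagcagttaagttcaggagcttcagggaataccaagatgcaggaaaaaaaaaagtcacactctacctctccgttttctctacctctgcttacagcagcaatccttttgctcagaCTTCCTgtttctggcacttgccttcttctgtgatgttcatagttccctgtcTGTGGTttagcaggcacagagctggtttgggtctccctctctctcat

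In these windows the Cd3g promoter held 1 match, to the GATA letters, and the Cd3d promoter 4, which were 2 each to the ETS and the TCF/LEF letters. The Cd3e window held 2 ETS matches, and the Il7r window 1 ETS and 1 RUNX match. No match overlapped another in the windows shown. RefSeq promoter windows were given for 23 of the 33 members, 30 windows in all because some genes have several starts. ETS letters were in 16 of those 30 windows (53.3%), against 35.4% of all 32851 promoter windows. RUNX letters were in 9 (30.0%, against 16.8%), TCF/LEF letters in 8 (26.7%, against 16.0%) and GATA letters in 3 (10.0%, against 11.2%). These are matches of letters only, and windows of 1 gene can overlap.

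Libraries held between 6763367 and 8361877 reads, at which 1 read was worth 0.119 to 0.146 CPM. The libraries differed widely in genes of other tissues. The summed level of 30 hair shaft genes ran from 19.7 to 7648 CPM across both groups, and that of 24 skeletal muscle genes from 1727 to 6755 CPM in vehicle and from 3696 to 17810 with quinpirole. The sum of 12 pan-leukocyte genes ranged from 475.3 to 982.5 CPM in vehicle and from 644.5 to 1002 with quinpirole. In whole skin, fewer T cells and less RNA per T cell cannot be told apart.

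No T cell gene passed the test between quinpirole and vehicle. Of the 28 tested, 0 were called by limma at an adjusted p under 0.05 (adjusted by Benjamini-Hochberg over all 14548 genes tested, of which 0.0206% were called), and edgeR and DESeq2 on the recovered reads called 0 of the 28 as well, where they called 0.0344% and 1.51% of all genes tested. Values were lower with quinpirole for 17 and higher for 11, and 60.7% lower stands beside 50.4% of all genes tested. The median log2 fold change of the 28 was -0.093, against -0.0021 for all genes tested, and it was -0.013 without vehicle replicate 1 and -0.20 without vehicle replicate 3. At an unadjusted p under 0.05, 1 member, Thy1, was higher (3.57%, against 6.92% of all genes tested) and 0 were lower (against 4.47%). The groups overlapped for all 28 tested members, whereas 0.859% of all genes tested lay wholly lower and 1.34% wholly higher with quinpirole. Fold changes were computed as differences in log2(CPM + 1), which understates changes of low genes. On that scale the 95% interval lay between -1 and 1 for 27 of the 28. For low genes this does not bound the change in CPM at 2-fold. The exception was Il2rb, with a lower bound of -1.07.

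**Figure D1:**
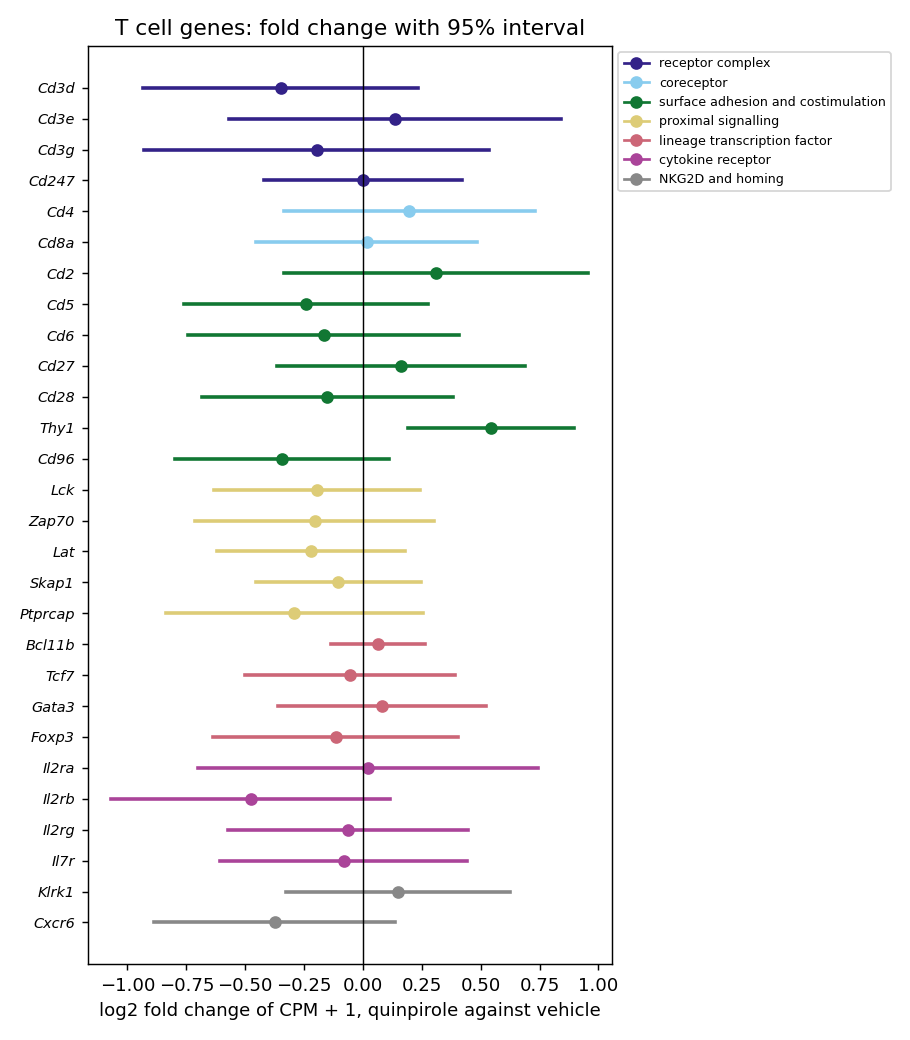
Log2 fold change of CPM plus 1 (x axis) for the 28 tested T cell genes (y axis), quinpirole against vehicle, with 5 libraries per group. Points are limma estimates, bars are 95% intervals and colours are gene roles; the interval of Thy1 alone, 0.19 to 0.90, does not reach 0, before adjustment over all genes.

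The CD3 chains carry the signalling motifs of the receptor, and were measured at 86 to 295 reads per library for Cd3d, Cd3e and Cd3g together. In the order of replicates 1 to 5, Cd3g had 15.8, 5.98, 6.28, 13.9 and 13.8 CPM in vehicle libraries and 5.58, 6.98, 7.08, 18.7 and 10.5 in quinpirole libraries, and all values by library below keep that order. Both groups held libraries near 6 CPM and libraries above 10, and the highest was quinpirole replicate 4. The log2 fold change of Cd3g was -0.20 (SE 0.34, 95% interval -0.93 to 0.54, limma adjusted p = 0.866). Leaving out single libraries gave -0.44, without quinpirole replicate 4, to -0.0477, without quinpirole replicate 1.

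Cd3d had 3.64, 1.42, 1.18, 3.70 and 3.49 CPM in vehicle and 1.66, 1.75, 1.63, 1.02 and 2.97 with quinpirole, in the same order. Vehicle replicates 1, 4 and 5 were above every quinpirole library and replicates 2 and 3 were not, and the log2 fold change was -0.35 (SE 0.27, limma adjusted p = 0.669). Cd3e measured 5.90, 6.97, 3.80, 6.86 and 8.94 CPM in vehicle and 4.63, 7.86, 5.58, 17.8 and 4.39 with quinpirole. Quinpirole replicate 4 stood above all other libraries, and the remaining quinpirole libraries lay within the vehicle range. The fold change of Cd3e was 0.14 (SE 0.32, limma adjusted p = 0.910) and turned to -0.17 without that library and to -0.0134 without vehicle replicate 3.

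The neighbouring genes did not keep a fixed ratio. Cd3e had 140 reads and Cd3d 8 in quinpirole replicate 4, or 17.5 Cd3e reads per Cd3d read, where the other 9 libraries had between 1.48 and 4.90. Cd3d was thus at its lowest in the library where Cd3e and Cd3g were at their highest. GENCODE places other transcripts, Gm48720 on the same strand and Gm48719 on the opposite strand, over Cd3e, and none over Cd3d or Cd3g. Quinpirole replicate 4 also had the highest skeletal muscle sum, at 17810 CPM, and the highest pan-leukocyte sum, and the part of either in the Cd3e level was not tested. Cd247, the zeta chain, which has the most signalling motifs of the complex, measured 4.35 ± 1.45 CPM in vehicle against 4.22 ± 0.618 (SD, n = 5 each) under quinpirole, which gave a log2 fold change of 0.0010 (95% interval -0.42 to 0.42).

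**Figure D2:**
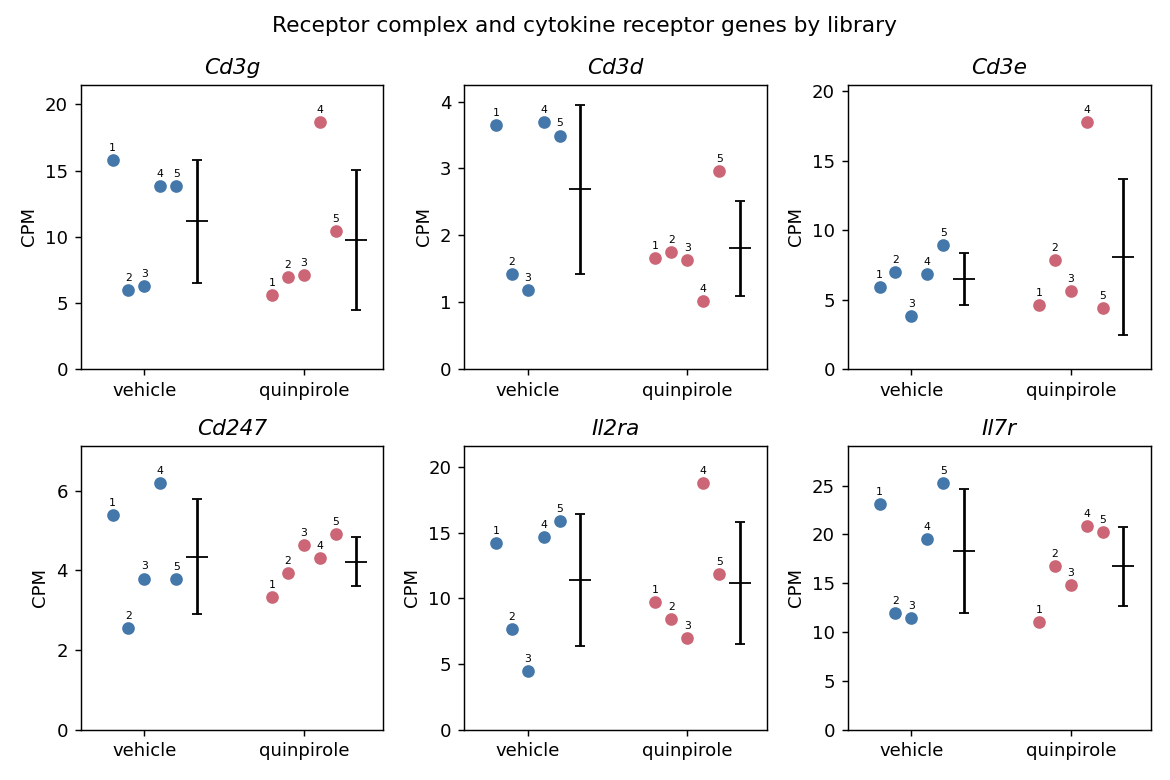
CPM (y axis) of 4 receptor complex genes and 2 cytokine receptor genes in 5 vehicle and 5 quinpirole libraries. Points are libraries with their replicate number, and the bar beside each group is mean ± SD; quinpirole replicate 4 is highest for Cd3e at 17.8 and lowest for Cd3d at 1.02.

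CD4 and CD8 are the coreceptors that bind MHC class II and class I and bring LCK to the receptor. Cd4 ranged from 2.23 to 5.40 CPM in vehicle and from 3.0 to 6.84 with quinpirole (log2 fold change 0.20, SE 0.24, limma adjusted p = 0.807). Cd8a was lower, at 1.55 ± 0.777 and 1.5 ± 0.305 CPM (SD, n = 5 each; log2 fold change 0.016, SE 0.21). Its partner Cd8b1 was at the edge of detection, with 3, 3, 3, 4 and 3 reads in vehicle and 0, 2, 2, 2 and 2 with quinpirole. These groups did not overlap, and of the 2468 genes below the level for testing 1.01% lay wholly lower with quinpirole. The exact two-sided permutation p of Cd8b1 was 0.00794, unadjusted and the smallest that 5 against 5 libraries can give, and the difference rests on single reads.

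Thy1, a surface molecule, had the smallest p of all members. It encodes Thy-1, a glycoprotein anchored in the membrane of mouse T cells and also carried by fibroblasts, from chr9:44043384-44048579 (mm10, plus strand). Thy1 had 103, 83.1, 83.1, 107 and 59.5 CPM in the vehicle libraries, against 134, 97.3, 117, 130 and 153 in the quinpirole libraries. All quinpirole libraries but replicate 2 were above every vehicle library. The means were 87.1 ± 18.9 and 126 ± 20.7 CPM (SD, n = 5 each), which differ by 0.54 on the log2 scale (SE 0.16, limma unadjusted p = 0.00584, adjusted p = 0.240). The adjusted p lay between 0.0906, by DESeq2, and 0.435 over 21 alternatives, and the fold change between 0.42 and 0.63.

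A relation of Thy1 to the CD3 genes did not pass the test. Its Pearson's r with the mean log2 level of Cd3d, Cd3e and Cd3g over 10 libraries was -0.0829 (permutation p = 0.824, adjusted p = 0.930 over all genes tested) with a Spearman's rho of 0.0546 (permutation p = 0.891, adjusted p = 0.958). Leaving out the 2 libraries farthest from the median of the CD3 mean gave r = 0.17. Of 12 dermal fibroblast genes, 0 were called, and 5 had higher and 7 lower values with quinpirole. Among the 12, an unadjusted limma p under 0.05 was reached by 2 higher genes (16.7%, against 6.92% of all genes tested). It was reached by 0 lower genes (against 4.47%). Their summed level was 4728 to 7944 CPM in vehicle and 4973 to 7259 with quinpirole. The matrix proteoglycan gene Lum was 175 to 425 CPM in vehicle and 404 to 682 under quinpirole, which differ by 0.88 on the log2 scale (adjusted p = 0.232 by limma), and Dcn, another proteoglycan gene of fibroblasts, had 0.65 (0.324). Collagen gene Col3a1 had -0.355 (0.616), and Dpt, a dermal matrix gene, 0.35 (0.496). The part of fibroblasts in the level of Thy1 was not tested.

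**Figure D3:**
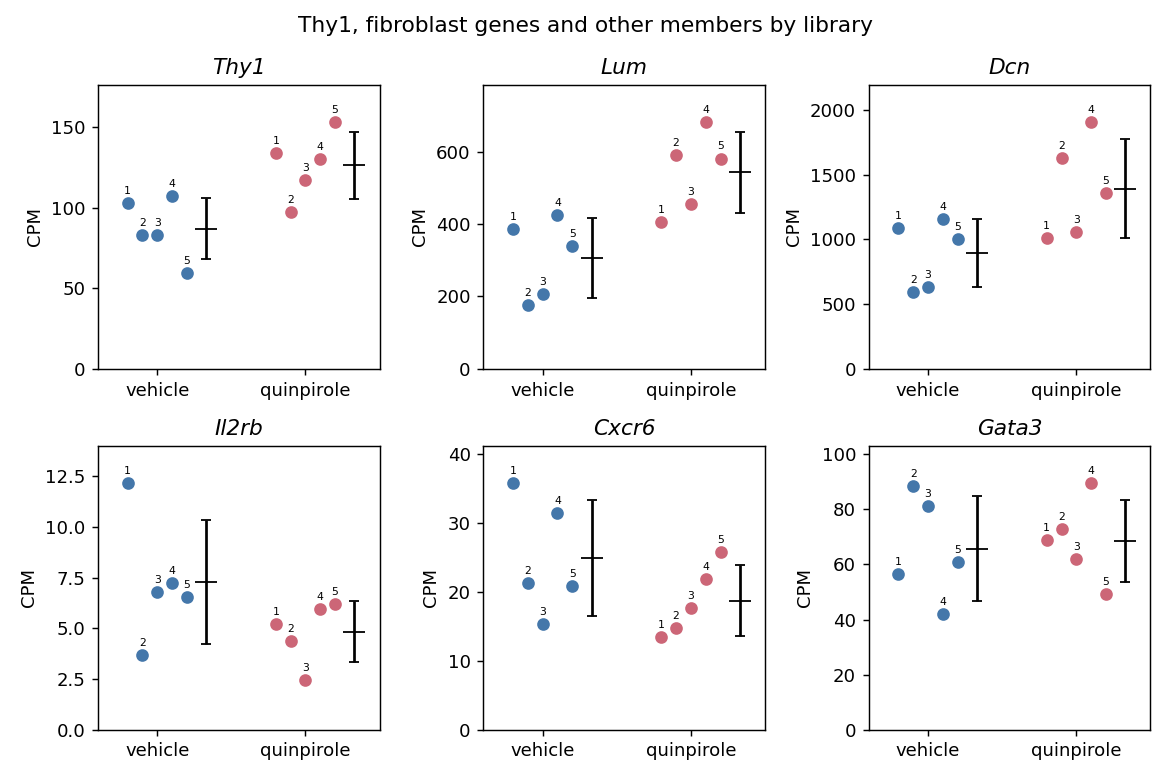
CPM (y axis) of Thy1, the fibroblast genes Lum and Dcn, and the members Il2rb, Cxcr6 and Gata3 in 5 vehicle and 5 quinpirole libraries. Lum and Dcn are among 5 fibroblast genes with higher values under quinpirole, and the other 7 of the 12 listed had lower values. Points are libraries with their replicate number, and the bar beside each group is mean ± SD; 4 of 5 quinpirole libraries lie above every vehicle library for Thy1.

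The other surface members had low levels. CD2, an adhesion receptor, had 1.14 to 2.51 CPM in vehicle and 1.23 to 6.10 with quinpirole (Cd2, log2 fold change 0.31, SE 0.30), and the highest was again quinpirole replicate 4. Without it the fold change of Cd2 was 0.0762, and without quinpirole replicate 3 it was 0.49. Cd5 and Cd6, paired scavenger-type receptors that set the threshold of receptor signalling, had -0.24 and -0.17. The costimulatory receptors had 0.16 for Cd27 and -0.15 for Cd28, and Cd96, a receptor of T and natural killer cells, had -0.34. Their limma adjusted p lay between 0.561 and 0.854.

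Below the receptor, values of all 5 tested signalling genes were lower with quinpirole, and none passed the test. Lat, the scaffold adaptor, was 6.53, 3.84, 3.40, 5.81 and 5.03 CPM in vehicle and 3.21, 4.22, 3.68, 5.46 and 3.61 with quinpirole (log2 fold change -0.22, SE 0.18, limma adjusted p = 0.692). Vehicle replicates 2, 3 and 5 lay within the quinpirole range. Lck measured 4.45 ± 1.22 and 3.75 ± 1.04 CPM (-0.19, SE 0.20), and Zap70 2.99 ± 1.49 and 2.31 ± 0.444 CPM (-0.20, SE 0.23; SD, n = 5 each). Ptprcap, a partner of the phosphatase CD45, had -0.29 (SE 0.25) and the adaptor Skap1 -0.10 (SE 0.16). Ptprcap overlaps Coro1b on the same strand and Rps6kb2 on the opposite strand. Other protein-coding neighbours lie on the opposite strand of Cd247 (Pou2f1), Cd27 (Vamp1), Foxp3 (Ppp1r3f and Ccdc22) and Cxcr6 (Fyco1), and whether counting used strand is not stated, so reads of these members are uncertain. The median of the 5 was -0.20, and their adjusted p was at least 0.692.

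Themis, a regulator of thymocyte selection, and Txk, a Tec family kinase, were below the level for testing. Themis had 22 reads in all vehicle and 34 in all quinpirole libraries, and Txk 17 and 27. By the exact permutation test (two-sided) p was 0.230 for each.

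Wider receptor signalling was read from a list of 37 further genes, of which 33 were tested. Values were lower for 24 and higher for 9, beside 50.4% lower among all genes tested. Of the 33, 0 were called, and the median log2 fold change was -0.0624. At an unadjusted p under 0.05 were 2 lower and 2 higher genes (6.06% each, against 4.47% and 6.92% of all genes tested), namely Nfatc2 and Nfatc1, the calcium-driven factors of the NFAT family, with 0.55 and 0.62, and Pag1, a negative regulator of Src family kinases, and Plcg1, the phospholipase that receptors switch on, with -0.43 and -0.19. Their limma adjusted p lay between 0.250 and 0.358. These 4 genes are also expressed outside T cells.

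Of the lineage factors, Bcl11b and Gata3 had levels far above those of the CD3 genes and Tbx21 was barely detected. Gata3, a factor of type 2 helper T cells, is also made by keratinocytes and the inner root sheath of the hair follicle. It was 56.4, 88.5, 81.3, 42.0 and 60.8 CPM in vehicle and 68.8, 72.8, 62.1, 89.7 and 49.4 with quinpirole, with a log2 fold change of 0.081 (SE 0.20). Bcl11b, needed for T cell commitment and also expressed in skin epithelium, varied least of all members, from 67.1 to 87.4 CPM over the 10 libraries, or 8.83% of its mean (SD). Its log2 fold change was 0.0645 with a 95% interval of -0.13 to 0.26. Tcf7, a Wnt pathway factor of T cells, had -0.0548 (SE 0.20).

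Foxp3, the factor that defines regulatory T cells, had 4.40, 1.85, 1.57, 3.04 and 5.03 CPM in vehicle and 2.38, 2.62, 2.31, 3.43 and 2.58 with quinpirole. The vehicle libraries spread over the wider range, on both sides of the quinpirole libraries, and the log2 fold change was -0.12 (SE 0.24, limma adjusted p = 0.895). Tbx21, the T-bet factor of type 1 responses, had 9 reads in all vehicle libraries and 8 in all quinpirole libraries (exact two-sided permutation p = 0.619).

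Receptor chains for IL-2 and IL-7 all overlapped between the groups. Il2rb, the beta chain shared by the IL-2 and IL-15 receptors, was 12.2, 3.70, 6.81, 7.26 and 6.57 CPM in vehicle and 5.23, 4.37, 2.45, 5.97 and 6.19 with quinpirole. Vehicle replicate 1 was highest, replicates 3, 4 and 5 were just above every quinpirole library, and replicate 2 lay within the quinpirole range. The log2 fold change was -0.48 (SE 0.27, limma adjusted p = 0.534). Leaving out vehicle replicate 1 gave -0.29, and leaving out quinpirole replicate 3 gave -0.30. Il2ra, the alpha chain of the IL-2 receptor, carried by activated and regulatory T cells, measured 11.4 ± 5.02 and 11.2 ± 4.64 CPM (SD, n = 5 each). Its log2 fold change was 0.022 (SE 0.33). The common gamma chain Il2rg measured 31.9 ± 9.21 and 30.6 ± 11.0 CPM (-0.064, SE 0.23), and Il7r 18.3 ± 6.35 and 16.75 ± 4.04 CPM (-0.082, SE 0.24). For Il2ra, Il2rg and Il7r the limma adjusted p was at least 0.932.

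Cxcr6, a chemokine receptor of tissue T cells, was 35.8, 21.2, 15.3, 31.4 and 20.8 CPM in vehicle and 13.4, 14.7, 17.6, 21.9 and 25.8 with quinpirole. The highest libraries were vehicle replicates 1 and 4, but the others overlapped (log2 fold change -0.37, SE 0.23, limma adjusted p = 0.576), and without vehicle replicate 1 the fold change was -0.23. Klrk1, the NKG2D receptor of cytotoxic cells, had 1.57 to 4.19 CPM in vehicle and 2.47 to 3.81 with quinpirole (0.15, SE 0.22).

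Per kilobase of exon, the order of mean levels over the 10 libraries began with Thy1 and the lineage factor Gata3. Thy1 stood at 35.6 CPM per kilobase, Gata3 at 16.9, Il2rg at 13.1, Cxcr6 at 11.3 and Bcl11b at 9.75. Il7r followed at 3.75, Ptprcap at 3.27 and Cd3g at 3.20. Cd3e and Cd3d had 1.78 and 1.24 CPM per kilobase, Cd4 1.03 and Cd8a 0.420. Themis and Txk came last, at 0.0630 and 0.0520. All exons of a gene were counted into its length, so neighbours in this order are not resolved.

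Across libraries most T cell genes had a positive correlation with the CD3 genes, and no single correlation passed the test after adjustment. The mean log2 level of Cd3d, Cd3e and Cd3g came to 3.03, 2.36, 2.08, 3.03 and 3.12 for the vehicle libraries, against 2.21, 2.53, 2.38, 3.18 and 2.65 for the quinpirole libraries. Vehicle replicates 1, 4 and 5 and quinpirole replicate 4 were above 3, and the other 6 libraries were below 2.7. Against this mean, which left out the gene itself, 25 of the 28 tested members had a positive Pearson's r (89.3%), where 52.7% of all genes tested had. An unadjusted permutation p under 0.05 was reached by 14 of the 28 and by 16.6% of all genes. Adjusted over all 14548 genes, 0 members and 0 genes passed by r or by Spearman's rho. Against the mean of 12 pan-leukocyte genes the counts were the same, 25 positive and 14 at an unadjusted p under 0.05, beside 52.1% and 14.7% of all genes tested, and 0 passed the adjustment. The values share their libraries, depth and low counts.

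Il7r had r = 0.92 and rho = 0.90 with the CD3 mean (permutation p = 4.5e-04 and 7.8e-04, adjusted p = 0.158 and 0.115). It had r = 0.92 also without the 2 outermost libraries of the CD3 mean, after each group was centred on its own mean, and within the 6 libraries of lowest CD3 mean. Il2ra had r = 0.92 and rho = 0.92 (permutation p = 2e-04 and 5.5e-04, adjusted p = 0.158 and 0.103), and r = 0.73 within those 6. Foxp3 had r = 0.88 and Lat 0.89 (adjusted p = 0.158 and 0.168, permutation), with 0.76 and 0.62 within the 6. For Il2rg, Ptprcap and Cd3g r was 0.91, 0.92 and 0.86 over all libraries (permutation adjusted p between 0.158 and 0.171), and 0.40, 0.57 and 0.46 within the 6.

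Cd3d and Cd3e each had a weak relation to the other CD3 genes, with r = 0.18 and 0.30 (permutation adjusted p = 0.824 and 0.705). Without the 2 libraries outermost in the mean of those other genes, r was 0.86 for Cd3d and 0.46 for Cd3e. These libraries were picked separately for each gene and were not the same. Gata3 had r = -0.36 with the CD3 mean, Tcf7 -0.24 and Bcl11b 0.23 (permutation adjusted p between 0.621 and 0.768). Gata3 reached -0.78 without the 2 outermost libraries of the CD3 mean.

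**Figure D4:**
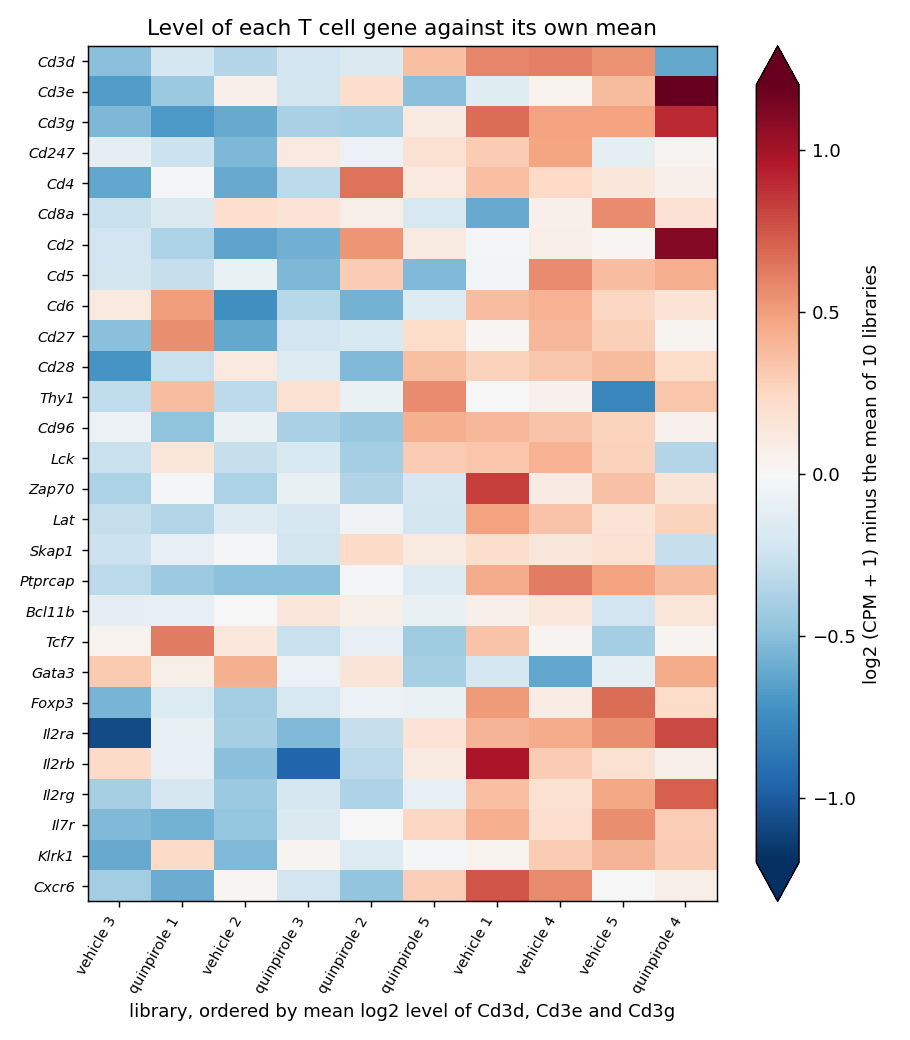
Log2 of CPM plus 1 of 28 tested T cell genes (rows) minus each gene's mean over 10 libraries (columns), with libraries ordered by the mean level of Cd3d, Cd3e and Cd3g. Red is above and blue below the gene's mean; the 4 libraries on the right, 3 vehicle and 1 quinpirole, are red for Il2ra, Il2rg, Foxp3 and Ptprcap, and Gata3, Tcf7 and Thy1 show no such order.

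**Figure D5:**
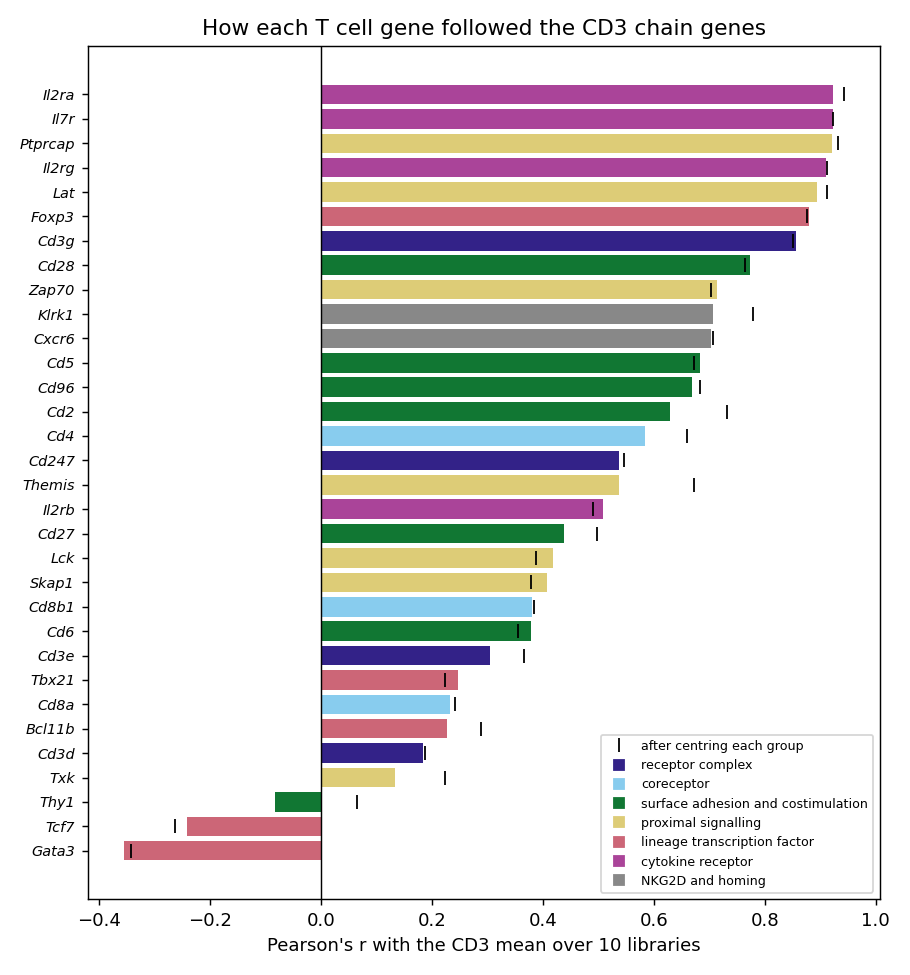
Pearson's r (x axis) between each of 32 T cell genes (y axis) and the mean log2 level of Cd3d, Cd3e and Cd3g over 10 libraries, leaving out the gene itself. Bars are coloured by gene role and black ticks give r after centring each group; Il2ra and Il7r reach 0.92 and Gata3 lies at -0.36.

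Many markers of other lymphocytes were below the level for testing. Of 18 genes of natural killer and innate lymphoid cells 12 were present and 6 tested, 4 with lower and 2 with higher values and 0 called, and their summed level was 9.39 to 29.1 CPM in vehicle and 12.5 to 22.6 with quinpirole. The defining marker Ncr1 had 39 reads in vehicle and 36 with quinpirole, summed over libraries, and Eomes 10 and 20. Klrb1f had a log2 fold change of 0.48, Klrb1b -0.33, Klrc1 -0.19 and Nkg7 0.15. Of 15 B cell and plasma cell genes 11 were present and 4 tested, 3 lower and 1 higher and 0 called, with sums of 55.4 to 80.3 CPM in vehicle and 56.3 to 98.2 with quinpirole. Most of that sum was Blnk (0.23), at 49.2 and 59.5 CPM, and the defining gene Ms4a1 had 10 reads in vehicle and 8 with quinpirole. The plasma cell gene Jchain had -0.96, Fcer2a -0.34 and Cd79b -0.11. Limma adjusted p was at least 0.467 in both lists.

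Constant and variable genes of the T cell receptor chains were not analysed here, and 6 of 22 listed genes of receptor chains and gamma-delta T cells were tested, and 0 were called. Cd163l1, the SCART1 receptor of gamma-delta T cells, had a log2 fold change of -0.47, the kinase Blk -0.41 and the factor Maf 0.19 (limma adjusted p at least 0.526). The list had 4 lower and 2 higher values and a median of -0.11. Its summed level was 131.0 to 154.2 CPM in vehicle and 155.6 to 179.0 with quinpirole, and Maf made up most of it, at means of 96.4 and 109.7 CPM.

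Genes of T cell trafficking and activation were 27 tested of 31, with 17 lower and 10 higher values, 0 called and a median log2 fold change of -0.13. Of all genes tested, 50.4% had lower values. At an unadjusted p under 0.05 were 3 lower genes (11.1%, against 4.47% of all genes tested) and 1 higher gene (3.7%, against 6.92%). These are the 4 named here. Icos, a costimulatory receptor of activated T cells, was 28.0, 11.4, 11.5, 26.0 and 24.7 CPM in vehicle and 6.89, 6.55, 11.4, 16.1 and 12.6 with quinpirole (-0.83, SE 0.31, limma adjusted p = 0.330). Vehicle replicates 1, 4 and 5 were above every quinpirole library, including quinpirole replicate 4, which had the highest CD3 mean of all libraries. The relation of Icos to the CD3 genes was not tested. Itgal, the integrin chain of LFA-1, was 25.3 to 41.8 CPM in vehicle and 13.0 to 29.3 with quinpirole (-0.66, adjusted p = 0.245). The chemokine receptor gene Cxcr4 had -0.51 (0.395) and Tnfrsf18, which encodes GITR, 0.31 (0.332).

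Tissue lists showed larger but uncalled differences. Of 29 tested hair shaft genes all had lower values with quinpirole (median -1.60, 0 called), with Lef1 at -1.29, Dsg4 at -1.71, Hoxc13 at -1.04 and Msx2 at -0.90. All 24 skeletal muscle genes had higher values (median 1.13, 0 called), with Tcap at 1.40, Myh1 at 1.51, Tnni2 at 1.19 and Tnnt3 at 1.53. At an unadjusted limma p under 0.05, 17 of the muscle genes were higher (70.8%, against 6.92% of all genes tested). Of the hair shaft genes 0 were lower at that level (against 4.47%). With the hair shaft mean as a covariate the median of the T cell genes was -0.20 and 0 were called, and with the pan-leukocyte mean it was -0.096 and 0 were called. The 12 pan-leukocyte genes had 4 lower and 8 higher values and a median of 0.052, with Cytip at -0.47, Cd48 at 0.30, Rac2 at -0.24 and Arhgdib at 0.21.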

How the data were processed

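Per the labels' protocols, directional libraries were made from whole skin RNA after removal of ribosomal RNA. RSEM 1.3.0, Bowtie2, Trimmomatic 0.38, edgeR and the mm10 build appear in the submitters' processing notes, without their roles, and no annotation is named. The authors' deposited values are a signal, gene counts scaled per library. In each library 100% of values were whole multiples of what 1 read is worth, within 1e-06, which gave the reads, and the implied scaling equalled that of edgeR's TMM method. RSEM can divide reads among similar genes.

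Values were divided by 1 constant, the same for all libraries, which puts the mean column total at CPM scale, and tested as log2 of CPM plus 1 with limma 3.58.1 (mean-variance trend, two-sided, R 4.3.3) over 14548 genes that reached 1 CPM in at least 5 libraries. P-values were adjusted by Benjamini-Hochberg and called at 0.05. Members below the filter had an exact permutation test. Correlations used 100000 permutations (scipy 1.17.1). Their adjustment had been planned over the members alone, under which some passed; since the members were not chosen blind to the data it was replaced, after those results were seen, by one over all genes tested, under which none passed. The fit was tried on simulated counts with the same spread for all genes. Changes were placed only in genes of higher read counts, so the low members were not covered. Alternatives were other pseudocounts, filters and scalings, edgeR 4.0.16, DESeq2 1.42.0, covariates, the replicate number as a block, and leaving out each library. The smallest chi-square per gene between libraries of a group was 6.41, above the 1 of pure sampling noise, so all 10 were counted as separate. The labels name no batches.

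The members and lists were chosen with earlier results of these data known. The text names all members, and from each other list the 4 genes of smallest p; Ncr1, Eomes and Ms4a1 were added as defining markers, and some genes the rule would name are not reported here. Positions and exon lengths are from GENCODE M21. Figures used matplotlib 3.10.9.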

Additional observations from a re-analysis of the deposited data

Results flagged for a closer look

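In groups of 5, a library was set apart where its gap to the nearest other took up more of the group's range than Dixon's 95% critical value allows; this was looked for in 64 sets of values, and chance does it in about 1 of 20. It occurred 4 times, each among the quinpirole libraries. Replicate 4 was highest for Cd3e, at 17.8 CPM against 7.86 in the next library, for Il2rg, at 50.1 against 28.0, and for Foxp3, at 3.43 against 2.62. Replicate 1 had 0 reads of Cd8b1, a level of 0 CPM, against 0.254 CPM in the next lowest library.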

How the results depend on the processing

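No alternative called any of the T cell genes. Over the 21 alternatives their median log2 fold change stayed below 0, from -0.20 without vehicle replicate 3 to -0.013 without vehicle replicate 1. Of the 28 genes, 19 kept their direction throughout.

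Direction turned for 9 genes whose fold change was within its error. Cd247 had -0.00814 with a pseudocount of 5, -0.00133 on column totals, -0.00741 with quantile normalization, -0.0523 by edgeR, -0.0504 by DESeq2, -0.0470 with the hair covariate and -0.00226 with the leukocyte covariate. Cd8a had -0.00489 with a pseudocount of 5, -0.0492 by edgeR, -0.0453 by DESeq2 and -0.102 with the hair covariate. Il2ra had -0.0324 by edgeR, -0.0261 by DESeq2 and -0.198 with the hair covariate, under which Cd3e had -0.108 and Tcf7 0.0721. Leaving out single libraries gave -0.169 to 0.281 for Cd3e, -0.135 to 0.119 for Cd247, -0.133 to 0.159 for Cd8a, -0.218 to 0.0461 for Tcf7, -0.0659 to 0.199 for Gata3, -0.271 to 0.0362 for Foxp3, -0.244 to 0.165 for Il2ra, -0.251 to 0.0432 for Il2rg and -0.224 to 0.0495 for Il7r. The cause was not tested.

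Over all genes, limma called 3. The count was 5 with a pseudocount of 0.1, on column totals and by edgeR, 6 without the filter, 219 by DESeq2, 14 with the hair covariate and 55 with the leukocyte covariate, and between 0 and 10 without single libraries. With the replicate block it was 0, with 1576 genes at an unadjusted p under 0.05. Deviations of same-numbered libraries correlated between -0.24 and 0.22. Libraries of different numbers were not compared, so these values cannot decide whether the replicate numbers pair the libraries. Depth limits the low members most: Cd8b1 and Tbx21 had 0 to 4 reads per library.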
